A study of Rattus norvegicus with 2 samples.

Results

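Oxidant-producing and antioxidant enzymes were examined in the nucleus of the solitary tract (NTS), the dorsal medullary nucleus that receives baroreceptor and other visceral input, of spontaneously hypertensive rats (SHR). The 10 genes were chosen by name, with earlier results of these data known. They comprised 4 NADPH oxidase subunits (Cybb, Cyba, Ncf1 and Nox4), 5 scavengers (Sod1, Sod2, Sod3, Cat and Gpx1) and the glutathione transferase Gstm1. Probes were assigned to them through the transcript accession of each probe, which gave 14 probes with 49 spots. All 10 genes were found, out of 16581 named genes on the array. All 10 had at least 1 probe well above background on both arrays, as had 13428 of the 16581 named genes.

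The study compared female with male SHR, all 9 weeks old. NTS tissue was dissected by a single operator, and equal amounts of RNA (100 ng) from 5 rats of a sex were pooled. Each pool was hybridised to 1 one-colour Agilent array, and both arrays were on 1 slide and read in 1 scan. There was thus 1 array per sex and no replicate: how much animals or pools vary is unknown for every difference below, and no p-value is given. No other strain was measured, so nothing here compares SHR with a normotensive rat. In tissue RNA, fewer cells of a type and less RNA per cell cannot be told apart.

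NADPH oxidases carry electrons from NADPH across a membrane to oxygen and so make superoxide. Superoxide dismutases turn superoxide into hydrogen peroxide, which catalase and the glutathione peroxidases remove. Glutathione transferases couple glutathione to reactive electrophiles such as the products of lipid peroxidation. Oxidant production in brainstem centres of blood pressure control has been studied in hypertensive rats, and Gstm1 was proposed as a candidate gene in stroke-prone SHR from its renal expression.

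Promoter windows of 300 bases, from 250 bases upstream to 50 bases downstream of a gene's start, were taken from RefSeq (assembly GRCr8) and were present for 9 of the 10 genes. They are shown because Gstm1 is the candidate gene and because antioxidant genes are classically controlled through the antioxidant response element. The core of that element, TGACNNNGC, was searched on both strands and was found in 2 of the 9 windows, those of Ncf1 and Sod2, and in 12.1% of 33469 windows of the same length. The TATA box, TATAAA, was also found in 2 of the 9 windows, those of Sod1 and Gstm1, and in 14.2% of all windows. Capitals mark the TATA box in the Gstm1 window and the element's core, read on the reverse strand, in the Ncf1 and Sod2 windows. The reference assembly is of another strain, so these are not SHR sequences, and a match of letters is a description only. The windows lie at chr2:198343334-198343633, minus strand, for Gstm1, at chr12:28121635-28121934, plus strand, for Ncf1, and at chr1:50050119-50050418, minus strand, for Sod2.
Gstm1: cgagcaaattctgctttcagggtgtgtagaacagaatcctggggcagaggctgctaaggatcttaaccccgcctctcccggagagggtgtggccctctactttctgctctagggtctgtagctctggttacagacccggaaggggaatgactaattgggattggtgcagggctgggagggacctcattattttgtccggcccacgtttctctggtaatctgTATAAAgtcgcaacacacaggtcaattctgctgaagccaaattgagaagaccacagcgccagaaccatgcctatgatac
Ncf1: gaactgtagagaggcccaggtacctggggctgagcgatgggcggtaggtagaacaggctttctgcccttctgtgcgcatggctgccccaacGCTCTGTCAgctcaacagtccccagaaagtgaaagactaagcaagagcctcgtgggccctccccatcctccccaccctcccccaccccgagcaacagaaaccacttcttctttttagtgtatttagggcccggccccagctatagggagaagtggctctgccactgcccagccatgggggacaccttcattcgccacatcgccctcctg
Sod2: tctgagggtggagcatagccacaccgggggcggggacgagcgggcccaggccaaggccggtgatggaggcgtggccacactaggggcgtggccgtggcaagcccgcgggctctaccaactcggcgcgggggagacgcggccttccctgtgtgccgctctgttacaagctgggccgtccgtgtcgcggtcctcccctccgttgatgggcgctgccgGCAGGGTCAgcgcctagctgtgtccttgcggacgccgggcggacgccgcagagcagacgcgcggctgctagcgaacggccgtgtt

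Signals are given on a scale on which the 75th percentile of each array is 100. Differences are log2 values of the female over the male signal, and folds are given as the higher divided by the lower signal. The error beside a difference combines the scanner program's own error estimates for the spot on both arrays. It is a model of spot error only, about 10% of the signal in bright spots, and covers neither animals nor pools. Over repeated spots or several probes it was averaged and not reduced for their number, so it stays the error of a single spot. The sex labels were borne out by the Y-linked gene Eif2s3y, which stayed below the detection call in the female pool and reached 22.4 in the male pool, at least 65.0-fold lower in females. Y-linked Ddx3y was lower in females on both its probes. The probe A_43_P19826 was below the call in the female pool (0.136, against 6.94 in the male pool). The other was above it in both, with 10.2 in the female and 24.3 in the male pool. Y-linked Uty was above background on neither array. Folds given as "at least" use the lowest signal called above background on the array that lacks the call, unless the probe's own signal there is higher. They leave out the scanner error. Signal levels of different probes are not compared, since probes differ in hybridisation.

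None of the 10 enzymes reached a 1.5-fold difference between female and male NTS. Of all 13428 measured genes, 2.29% were past 1.5-fold (1.5% higher and 0.797% lower in females) and 0.551% past 2-fold (0.402% higher and 0.149% lower), so a count of 0 among 10 genes is close to that background. Of the 10 differences, 6 lay between -0.03 and 0.05 and 9 between -0.18 and 0.15, with 4 genes higher and 6 lower in females. That split depends on the scaling: centring on spike-in controls, which adds 0.07 to every gene, gave 8 higher and 2 lower (Cybb and Cat), and centring on the array median gave 3 higher and 7 lower. The gene outside -0.18 to 0.15 was Nox4, at 0.37. Its difference was also the only 1 of the 10 larger than the scanner error, and 15.4% of all measured genes passed the same limit. This depends on the processing: Nox4 was within its error with normexp background correction (0.14) and without background correction (0.18). It was also within that error with probes below background kept (0.21). Sod3 passed its error with spike-in centring (0.22). Only Nox4 and Sod3 differed by more than 1 SD of the differences of genes of like signal (4 bins of equal size by mean signal), against 15.9% of all measured genes.

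**Figure D1:**
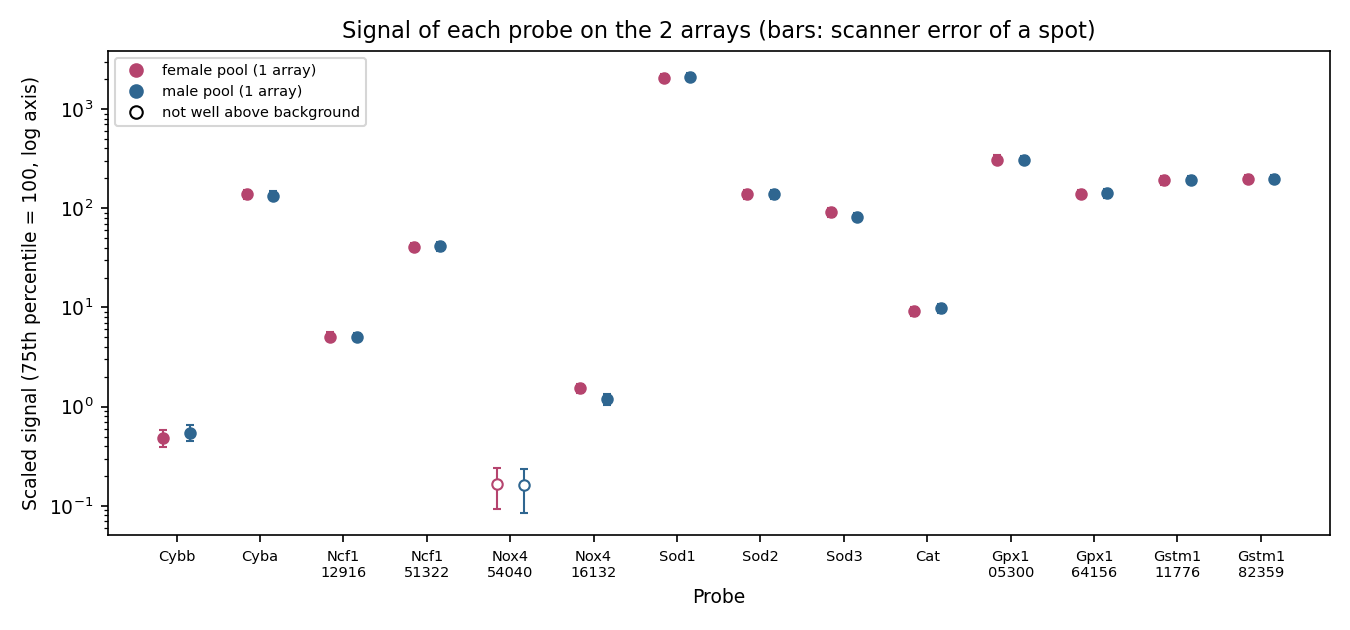
Scaled signal of each of the 14 probes on the female and the male array (log axis), with the scanner error of a spot as bars. Where a gene has 2 probes, the last 5 characters of the probe name stand under the symbol. Open points are not well above background, which holds only for 1 of the Nox4 probes, and the 2 points of every other probe lie within 1.3-fold of each other.

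Cybb encodes gp91phox (NOX2), the catalytic subunit of the phagocyte oxidase, and lies on the X chromosome. Its 1 probe gave a signal of 0.484 ± 0.093 in the female pool and 0.547 ± 0.0995 in the male pool (scanner error). Both values were near the lowest signals called well above background, 0.344 in the female and 0.365 in the male pool. The difference was -0.18 ± 0.38, and the error ranges of the arrays overlapped. Cybb fell in the dimmest of these bins, in which the SD of differences over genes was 0.36, so a sex difference of this size was not detectable for this probe.

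Cyba encodes p22phox, the membrane partner that stabilises NOX2 and also NOX4. Its probe was printed in 10 spots on each array. The spots ran from 132.7 to 149 with a median of 136.4 in the female pool, and from 126.3 to 142.4 with a median of 133.1 in the male pool. The ranges overlapped, and 9 of 10 positions were brighter in the female pool. The mean difference was 0.05, a 1.03-fold higher female signal, with an SD of 0.04 and a standard error of 0.0131 over spots. Under this scaling it thus exceeded the noise between spots but was smaller than the scanner error of a single spot, 0.20. Over 1326 probes with at least 8 spots the median SD over spots was also 0.04. With median centring the Cyba difference was 0.0148, close to its standard error over spots. In the main setting it was 0.37 times the SD of differences over genes of the brightest bin. Spots of 1 array are not replicates of the sex.

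Ncf1 encodes p47phox, the cytosolic organiser that moves to the membrane when the oxidase is activated. Its probes gave 5.09 in the female and 5.06 in the male pool (A_43_P12916), and 40.9 in the female and 41.4 in the male pool (A_64_P051322). The probes pointed in opposite directions, and the mean difference was -0.0045 ± 0.21. The female and male pools were within 1.01-fold of each other on both probes (1.006 and 1.012).

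Nox4 encodes a constitutively active oxidase that makes mainly hydrogen peroxide. Probe A_44_P916132 gave 1.53 ± 0.175 in the female and 1.19 ± 0.148 in the male pool, a difference of 0.37 ± 0.24 or 1.29-fold. The error ranges were narrowly apart, but the signal lay in the dimmest bin, and the difference was 1.03 times the SD over genes there. The other probe, A_44_P154040, was not well above background on either array, at 0.166 in the female and 0.161 in the male pool, and so gives no second reading of the difference. It was assigned through a curated Nox4 transcript, whereas A_44_P916132 was assigned through a predicted one. The Nox4 value thus rests on 1 dim probe of a predicted transcript, and what that probe detects was not tested. With normexp background correction the Nox4 difference was 0.14, and without background correction 0.18, both smaller than its scanner error of 0.24. With probes below background kept, which averages in the other probe, it was 0.21, also smaller than that error.

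**Figure D2:**
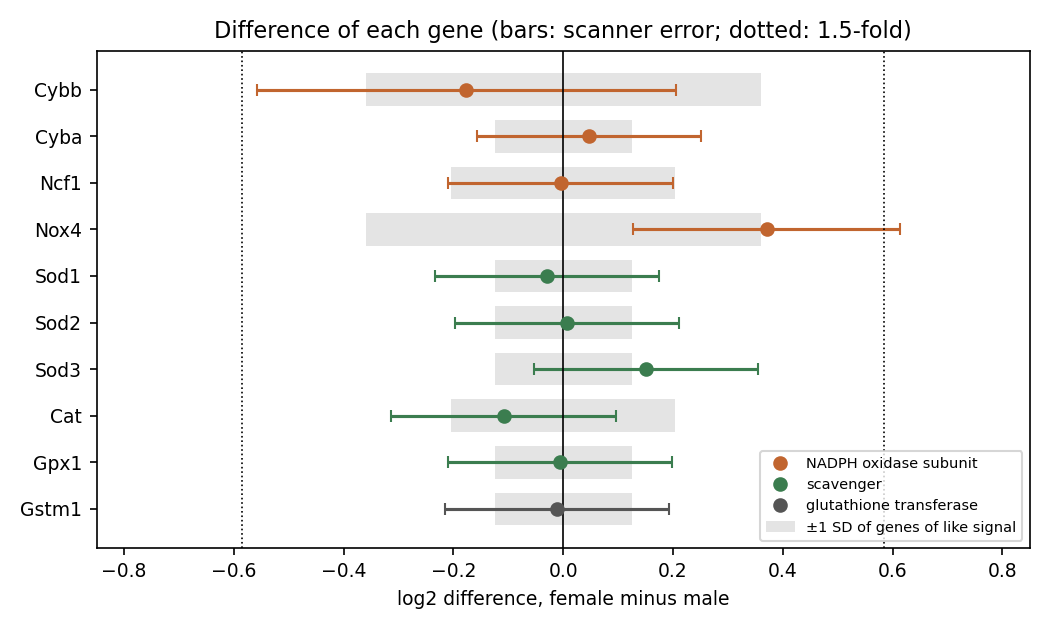
Log2 difference, female minus male, of each of the 10 genes, with the scanner error as bars. Grey bands are 1 SD of the differences of all genes in the same signal bin, 0.36 in the dimmest and 0.13 in the brightest, and dotted lines are 1.5-fold. All 10 points lie inside the dotted lines, and only that of Nox4 has an error bar clear of 0.

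The cytosolic copper and zinc dismutase gene Sod1 had a signal of 2063 ± 206 in the female and 2107 ± 211 in the male pool. The difference was -0.03 ± 0.20, within 1.02-fold. Sod2, which encodes the manganese dismutase of mitochondria, gave 138.7 ± 13.9 in the female and 137.9 ± 13.8 in the male pool. Its difference was 0.01 ± 0.20. Both genes had a single spot, and for both the pools differed by much less than the spot error.

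Sod3 encodes the secreted dismutase, which binds heparan sulfate in the extracellular matrix and vessel wall. Its 9 usable spots ran from 86.1 to 94.6 with a median of 91.5 in the female pool, and from 78.3 to 87.4 with a median of 81.7 in the male pool. The ranges overlapped at their edges, yet all 9 positions were brighter in the female pool. A further spot, marked as an outlier by the scanner program, was brighter there too. The mean difference was 0.15, or 1.11-fold, with an SD of 0.05 and a standard error of 0.02 over spots, so it exceeded the noise between spots. It was smaller than the scanner error of a single spot, 0.20, which is not reduced for the 9 spots. It was 1.20 times the SD of differences in the brightest bin of genes. Spots of 1 array share a labelling and a hybridisation and are not replicates of the sex.

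The peroxide scavengers differed little. Cat encodes catalase, the peroxisomal enzyme that splits hydrogen peroxide, and gave 9.12 ± 0.916 in the female and 9.83 ± 0.988 in the male pool. The difference was -0.11 ± 0.20, with overlapping error ranges. Gpx1 encodes the main cytosolic glutathione peroxidase and had 2 probes of 10 spots each. On probe A_42_P805300 the spots ran from 280.8 to 324.4 with a median of 312.1 in the female pool, and from 292.3 to 317.9 with a median of 306.8 in the male pool. On probe A_44_P1164156 they ran from 128.8 to 145.1 with a median of 139.5 in the female pool, and from 131.2 to 147.9 with a median of 142.6 in the male pool. The first probe was brighter in the female pool at 6 of 10 positions, with a difference of 0.0119 and a standard error over spots of 0.011. The second was brighter there at 3 of 10, with a difference of -0.0225 and a standard error of 0.0107. The probes pointed in opposite directions, both by far less than the scanner error of a single spot, 0.20, and their mean was -0.01.

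**Figure D3:**
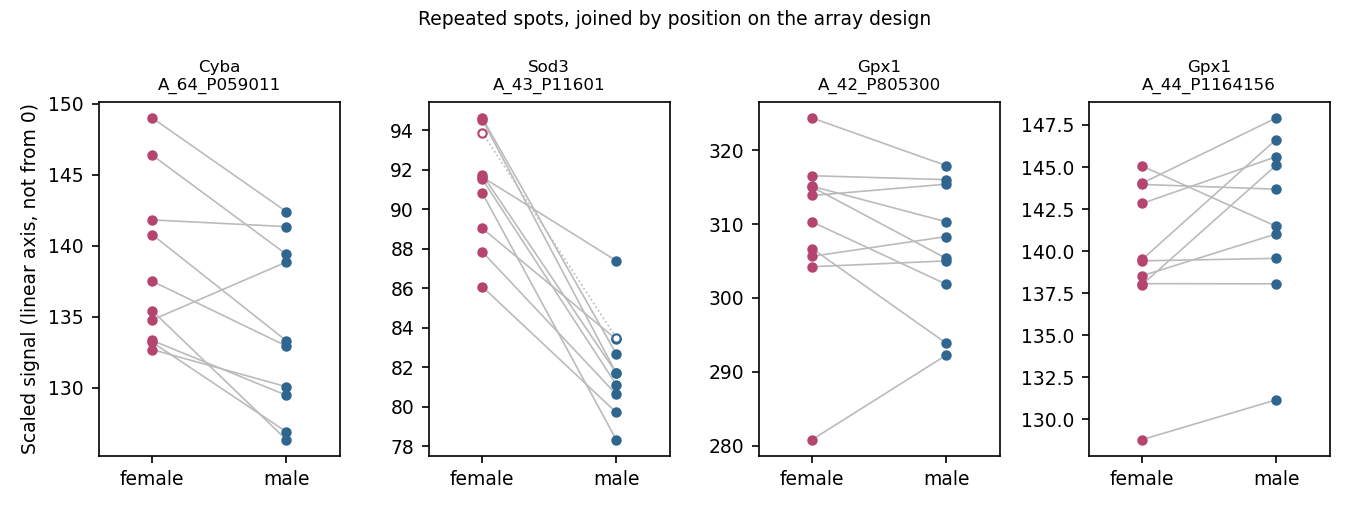
Scaled signal of the repeated spots of the 4 probes printed more than once, with lines joining the same position on the female and the male array (linear axes that do not start at 0). All 9 usable Sod3 spots are brighter in the female pool (the open points are the spot marked as an outlier), 9 of 10 Cyba spots are, and the 2 Gpx1 probes have lines of both directions.

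Gstm1 encodes a mu-class glutathione transferase, whose promoter window is printed above. Probe A_43_P11776 gave 190.2 ± 19.0 in the female and 193.6 ± 19.4 in the male pool. Probe A_44_P1082359 gave 197.9 ± 19.8 in the female and 197.3 ± 19.7 in the male pool. The probes were within 1.02-fold and 1.00-fold between the sexes, and their mean difference was -0.01 ± 0.20. The mu-class genes are alike in sequence, and cross-hybridisation of these probes with other members of the class was not tested.

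The medians of the oxidase subunits and of the scavengers differed by 0.03. The 4 subunits had a median difference of 0.02, from -0.18 for Cybb to 0.37 for Nox4, with 2 higher and 2 lower in the female pool. The 5 scavengers had a median of -0.01, from -0.11 for Cat to 0.15 for Sod3, with 2 higher and 3 lower. The median over all measured genes was 0.02. Across the other settings the median ran from -0.01 to 0.09 for the subunits and from -0.04 to 0.06 for the scavengers. The spread was wider among the subunits, which include both genes of the dimmest bin.

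The wider enzyme systems were read from 7 lists, which overlap, with 120 genes in all. Of these, 113 had a named probe and 107 were measured. Only 1 of the 107 measured genes was past 1.5-fold, which is 0.935% against the 2.29% of all measured genes, and 0 were past 2-fold. That gene was Duoxa1, the maturation factor of the dual oxidase DUOX1, with a dim signal of 1.12 in the female and 0.693 in the male pool and a difference of 0.69 ± 0.30. It was no longer past 1.5-fold with normexp, without background correction or after quantile normalization. A second gene, Ptgs2, which encodes the inducible cyclooxygenase, is outside the 107 because it was well above background in the female pool only. Its signal was 0.630 in the female and 0.262 in the male pool, at least 1.73-fold higher in females, with a scanner error of 0.48 on its log2 difference. Of the other 5 genes with a probe that were not measured, 4 were above background on neither array. The remaining gene, Gclm, the modifier subunit gene of glutathione synthesis, was above background in the female pool only, at least 1.27-fold higher. Its log2 difference of 0.50 was smaller than its scanner error of 0.52. The median over the 107 genes was -0.01, with 51 higher and 56 lower in the female pool. With spike-in centring it was 0.06, with 73 higher and 34 lower, and with median centring -0.04, with 37 higher and 70 lower.

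Among the 12 measured NADPH oxidase genes the median difference was -0.06, with 4 higher and 8 lower in the female pool. Duox1, which encodes the partner of Duoxa1, was at 0.35 ± 0.21 and Duox2 at -0.31 ± 0.24, both dim. The phagocyte oxidase genes Ncf4 (p40phox) and Rac2 were at -0.14 ± 0.21 and -0.11 ± 0.20. Nox3, an oxidase known from the inner ear, was not well above background on either array. In the list of other oxidant-producing enzymes 11 genes were measured, with a median of 0.04 and none past 1.5-fold; Ptgs2, described above, belongs to this list. Alox12, a lipoxygenase gene, was at 0.51 ± 0.36 with signals of 0.764 in the female and 0.537 in the male pool. Maob, which encodes the hydrogen peroxide-producing monoamine oxidase B, gave 46.1 in the female and 61.5 in the male pool. Its difference of -0.41 ± 0.20 was larger than its error, 1.33-fold lower in females, while Maoa was at 0.04 ± 0.20.

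Of 24 measured dismutases and peroxide scavengers, 12 were higher and 12 lower in the female pool, and the median was 0.00. Their largest difference was that of Gpx2, a glutathione peroxidase known from the gut epithelium, with 9.50 in the female and 12.9 in the male pool and a difference of -0.44 ± 0.20. The thioredoxin reductase gene Txnrd3 had the largest difference in the other direction, at 0.18 ± 0.21. The peroxiredoxins, which reduce peroxides, ran from -0.13 for Prdx1 to 0.13 for Prdx6. The 13 measured genes of glutathione synthesis and reduction had a median of -0.09, with 4 higher and 9 lower. Gclc, the catalytic subunit of the rate-limiting enzyme, was at 0.03 ± 0.20, and the glutathione reductase gene Gsr was at -0.11 ± 0.21. The largest differences of that list were -0.25 ± 0.25 for Ggt5 and -0.23 ± 0.24 for Anpep, both peptidase genes of glutathione breakdown.

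The 22 measured glutathione transferases had a median of 0.00, with 14 higher and 8 lower in the female pool. Within the mu class, Gstm2 was at 0.43 ± 0.21, with dim signals of 3.95 in the female and 2.92 in the male pool. Gstm4 was at -0.30 ± 0.20, with 9.91 in the female and 12.2 in the male pool. Gstm5 gave 95.5 in the female and 95.4 in the male pool. Gstm7 was at 0.13 ± 0.20 and the pi-class gene Gstp1 at 0.00 ± 0.20. Gstm1 thus lay between mu-class genes that differed in both directions, none of them past 1.5-fold.

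The 21 measured regulators and targets of Nrf2, the factor that binds the antioxidant response element, had a median of 0.01, with 11 higher and 10 lower. Nfe2l2, which encodes Nrf2, was at 0.10 ± 0.20, its inhibitor gene Keap1 at 0.05 ± 0.20 and the classical target Nqo1 at -0.11 ± 0.20. Hmox1, which encodes the inducible haem oxygenase, was at -0.44 ± 0.20, with 13.9 in the female and 19.0 in the male pool, a 1.36-fold difference. Osgin1 had the largest difference in the other direction, at 0.33 ± 0.32 and dim. Of the 10 metallothionein and haem genes, 8 were lower in the female pool, with a median of -0.06. The metallothionein genes Mt1 and Mt2A were the exceptions, at 0.27 ± 0.20 and 0.21 ± 0.20, while Mt3, also a metallothionein gene, was at -0.14 ± 0.20. With spike-in centring the NADPH oxidase list had a median of 0.01 (6 higher and 6 lower), as did the metallothionein and haem list (5 and 5). Under spike-in centring and median centring, 18 and 10 of the 24 dismutases and peroxide scavengers were higher in the female pool. The same settings gave 6 and 0 of the 13 genes of glutathione synthesis, 20 and 10 of the 22 glutathione transferases and 14 and 6 of the 21 Nrf2 genes, so the splits of these lists rest on the scaling.

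**Figure D4:**
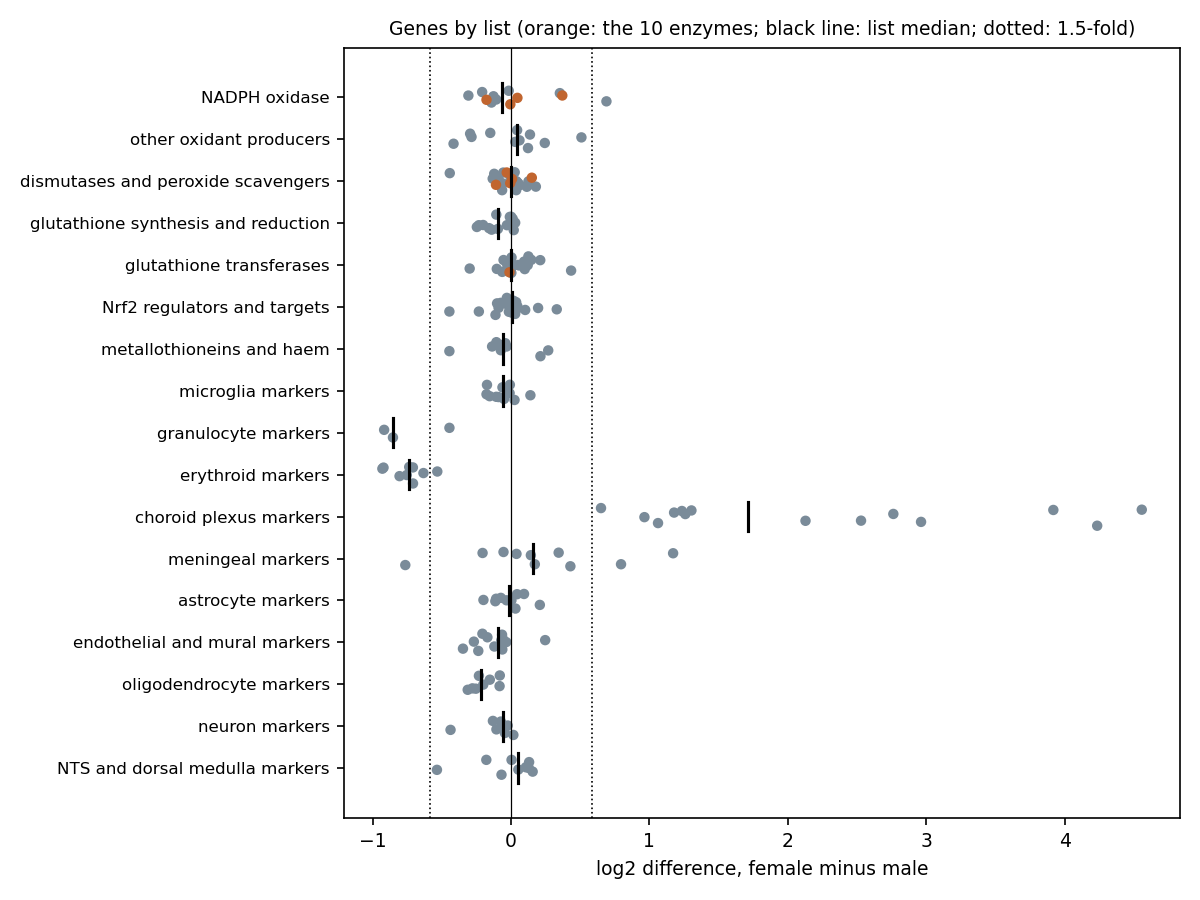
Log2 difference, female minus male, of every measured gene by list, with a black line at the list median and dotted lines at 1.5-fold. The 10 enzymes are in orange. The oxidant and antioxidant lists stay between the dotted lines except for Duoxa1, whereas all 14 choroid plexus genes lie beyond the right line and 8 of 9 erythroid genes beyond the left one.

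Markers of the cells that could carry these enzymes were set beside them. Cybb, Ncf1 and Cyba are genes of microglia and other phagocytes. All 12 microglia markers were measured, 10 of them lower in the female pool, with a median of -0.06 and none past 1.5-fold. With spike-in centring the microglia median was 0.01, with 7 higher and 5 lower. Their summed signal was 859.4 in the female and 893.1 in the male pool. Of 7 granulocyte markers on the array 3 were measured; these 3 were lower in the female pool, 2 of them past 1.5-fold, with a summed signal of 4.86 in the female and 8.42 in the male pool. A further one, Ltf, ran the other way: it was well above background in the female pool only, with 0.709 in the female and 0.343 in the male pool. It was at least 1.94-fold higher in females, with a scanner error of 0.42 on its log2 difference. Elane was above background in the male pool only, at least 1.11-fold lower in females, with a scanner error of 1.48. The other 2 were above background on neither array. Red cells are rich in catalase, Sod1 and Gpx1. All 9 measured erythroid markers were lower in the female pool, 8 past 1.5-fold, with a median of -0.73 and a summed signal of 5139 in the female and 8148 in the male pool. Sod1, Gpx1 and Cat, at -0.03, -0.01 and -0.11, did not share that size, and the part of blood in their values was not tested.

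All 14 measured choroid plexus markers were higher in females by 1.5-fold or more, 12 of them by 2-fold or more, with a median of 1.72. Their summed signal was 10024 in the female and 888.3 in the male pool, most of it from Ttr in both. Without Ttr the sum was 698.4 in the female and 271.1 in the male pool. Meningeal markers had a median of 0.16 (7 of 10 higher in the female pool), with 660.6 summed in the female and 838.0 in the male pool. The direction of that sum came from Col1a2, without which it was 384.1 in the female and 368.7 in the male pool. Endothelial and mural markers had a median of -0.09 (11 of 12 lower, and 7 of 12 with spike-in centring), with 203.8 in the female and 233.0 in the male pool. The array with the higher Sod3 and Nox4 signals was thus also the one with more choroid plexus signal, and the part of that tissue in either value was not tested. Astrocyte markers had a median of -0.01, neuron markers -0.06 and oligodendrocyte markers -0.22. Spike-in centring turned the astrocyte median to 0.05 and the neuron median to 0.01. The oligodendrocyte median was -0.15 under that setting, with all 8 markers still lower in the female pool. The labelled tissue was checked with 12 markers of the NTS and dorsal medulla, of which 9 had a named probe. All 9 were above background on both arrays, among them the noradrenaline synthesis genes Th and Dbh. So were 13428 of all 16581 named genes, which makes this a weak check. The median of the 9 was 0.05, with 6 higher and 3 lower in the female pool. Their largest difference was that of Gcg, at -0.53 ± 0.20, with 30.3 in the female and 43.9 in the male pool.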

How the data were processed

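RNA of the NTS was measured on 2 one-colour Agilent arrays, 1 pool of 5 rats per sex, and groups follow the sex in the labels. The deposited values are spot intensities, background-corrected within each array, per the file headers by Agilent Feature Extraction 11.5.1.1, and per the submitters' processing notes by version 9.1. In the authors' deposited value table each intensity is that signal divided by 1 constant, 23.4 for females and 22.8 for males.

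Values here are log2 of the processed intensity after subtracting log2 of the array's own 75th percentile. Controls and spots marked as outliers on either array (363 on the female, 284 on the male) were left out, no spot was saturated, and repeated spots were averaged. A gene is the mean of its probes well above background on both arrays (82.3% of spots were so for females, 80.1% for males). Of 45595 probes, 21109 were named by matching accessions to RefSeq genes (GRCr8). The number of arrays limits the precision, and no test was made.

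The members and gene lists were chosen with earlier results of these data known. Named genes are the 10 enzymes and, from each oxidant or antioxidant list, genes past 1.5-fold (at most 4) or else the 2 with the largest difference; further genes were named for their role after values were seen. Marker lists are given by counts, although the rule would name genes from them too. Alternatives changed the background correction (normexp with offset 50, or none, on each spot's median signal, since no mean signal is in the files), the scaling, the filter on dim probes, the gene summary, outlier spots and the fold. Scripts were tested on simulated data. Tools were Python 3.11.15, numpy 2.4.6, pandas 2.3.3, R 4.3.3 and limma 3.58.1.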

Additional observations from a re-analysis of the deposited data

How the results depend on the processing

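No paired analysis was possible because there is 1 pool of each sex. Over the 12 other settings of the values, each of the 10 genes stayed within its scanner error of the value given above. This held in all 118 cases that gave a value, and Cybb and Nox4 gave none among the brighter probes. Many of these cases could hardly differ, so the count says little about robustness. The authors' table holds the same signal over a constant, and median or spike-in centring shifts every gene alike. With 1 or 2 probes per gene, the median over probes equals the mean. Cybb ranged from -0.38 with quantile normalization to -0.02 without background correction, Nox4 from 0.14 to 0.44, Sod3 from 0.12 to 0.22, Cat from -0.14 to -0.04 and Cyba from 0.01 to 0.11. Ncf1, Sod1, Sod2, Gpx1 and Gstm1 lay on both sides of 0 across settings, between -0.06 and 0.07. The count of oxidant and antioxidant genes past 1.5-fold on the female side was 0 with normexp, without background correction, after quantile normalization and in the brighter probes, and 4 when probes below background were kept; it was 0 for lower in every one of these settings. The background counts moved more. Genes 2-fold higher in the female pool, 54 above, were 20 with normexp, 22 without background correction, 23 in the brighter probes and 555 with all probes. Genes 2-fold lower, 20 above, were 7, 9 and 217 with normexp, no correction and all probes, and 31 after quantile normalization. At 1.5-fold the counts were 201 higher and 107 lower, and at 3-fold 22 and 6. With all probes, spots below background enter the counts; the cause of the other shifts was not tested. Cybb and Nox4 are the 2 members in the dimmest bin of signal, where the SD of differences over genes was 0.36. Sums of marker lists were also taken without their brightest gene, a choice made after seeing the data, and this turned the direction for the meningeal list and for the list of NTS and dorsal medulla markers. For the choroid plexus list the direction stayed, and the log2 ratio of the sums fell from 3.50 to 1.37.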
